A study of Homo sapiens with 8 samples.

Results

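Imprinted genes were followed across 8 arrays of HEK293T cells given shRNA against the DNA demethylase TET1 or plasmids that supply it. The genes were taken by symbol from a list of 41 genes in known human imprinted domains, and the transcript cluster with the highest mean stood for each gene. Of the 41 genes, 25 had a named transcript cluster, the array's unit of measurement for a transcript, among the 16098 named clusters of the table. Signal is given on the log2 scale throughout, and the median of an array lay between 5.47 and 5.55. A gene was tested where it lay above the array's own median on at least 2 of the 8 arrays. This held for 18 of the 25 genes, for 11560 of the 16098 named clusters and for 28946 of all 53617 clusters.

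HEK293T cells derive from human embryonic kidney and express the large T antigen of SV40. Cells carrying a lentiviral shRNA gave 3 arrays, from 2 TET1 shRNA clones (labelled shTET1#1 and shTET1#2) and 1 control shRNA clone. Cells given a plasmid gave 5 arrays, 1 each for wild-type TET1-FL and TET1-CD, for their catalytically mutant forms mTET1-FL and mTET1-CD, and for the empty vector. Per the labels, fluorescence sorting took the transfected cells after 3 days. Each shRNA array is thus 1 clone, no source used here names the promoters of the plasmids, and nothing in the labels names separate cultures, so p-values measure only the spread between these arrays.

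The first TET1 cluster stood at 8.62 in clone shTET1#1 and at 9.14 in the array labelled shTET1#2, against 9.29 in the control clone, which is 1.59-fold and 1.11-fold lower. The second stood at 5.27 and 6.20 in these clones, against 5.71 in the control clone, so that it was not lower in the array labelled shTET1#2. On the 4 plasmid arrays the second cluster lay between 11.80 and 12.10, against 5.86 with the vector. The line's keratins KRT8 (6.14 to 6.92) and KRT18 (9.30 to 9.77) and vimentin, VIM (7.92 to 8.60), lay above the median on all 8 arrays. ALB of liver and KRT5 of basal epithelium lay below it on all 8.

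An imprinted gene is read from only 1 parental copy, because a control region carries DNA methylation set in the egg or the sperm. In many domains the unmethylated copy of that region starts a long non-coding RNA or binds CTCF, and either can silence neighbours on the same chromosome. TET1 oxidises methylated cytosine, a step toward its removal, and is known from mice for erasing imprints in germ cells. The arrays measured total RNA and not DNA methylation or the parental copy in use.

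Of the 25 imprinted genes, 15 lay above the array median on all 8 arrays, as did 22988 of all 53617 clusters. BLCAP did so on 7 arrays, PEG10 on 5, NNAT on 2 and DLK1 on 1, and MEG3, MEST, NDN, MAGEL2, NPAP1 and NAP1L5 lay below it on all 8. A value below the median may be limited by background, so a difference that rests on such values may be limited too. Among the tested genes this touches PEG10, NNAT and, on the vector array, BLCAP. The remaining 16 genes of the list are not analysed here: H19, IGF2, KCNQ1, CDKN1C, PHLDA2, SLC22A18, DIO3, PEG3, ZIM2, SGCE, PPP1R9A, COPG2, SNRPN, SNURF, DIRAS3 and ZDBF2. The gene set's own markers were H19, which had no named cluster, and PEG10, which lay near the median, so neither checked the set in this line.

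**Figure D1:**
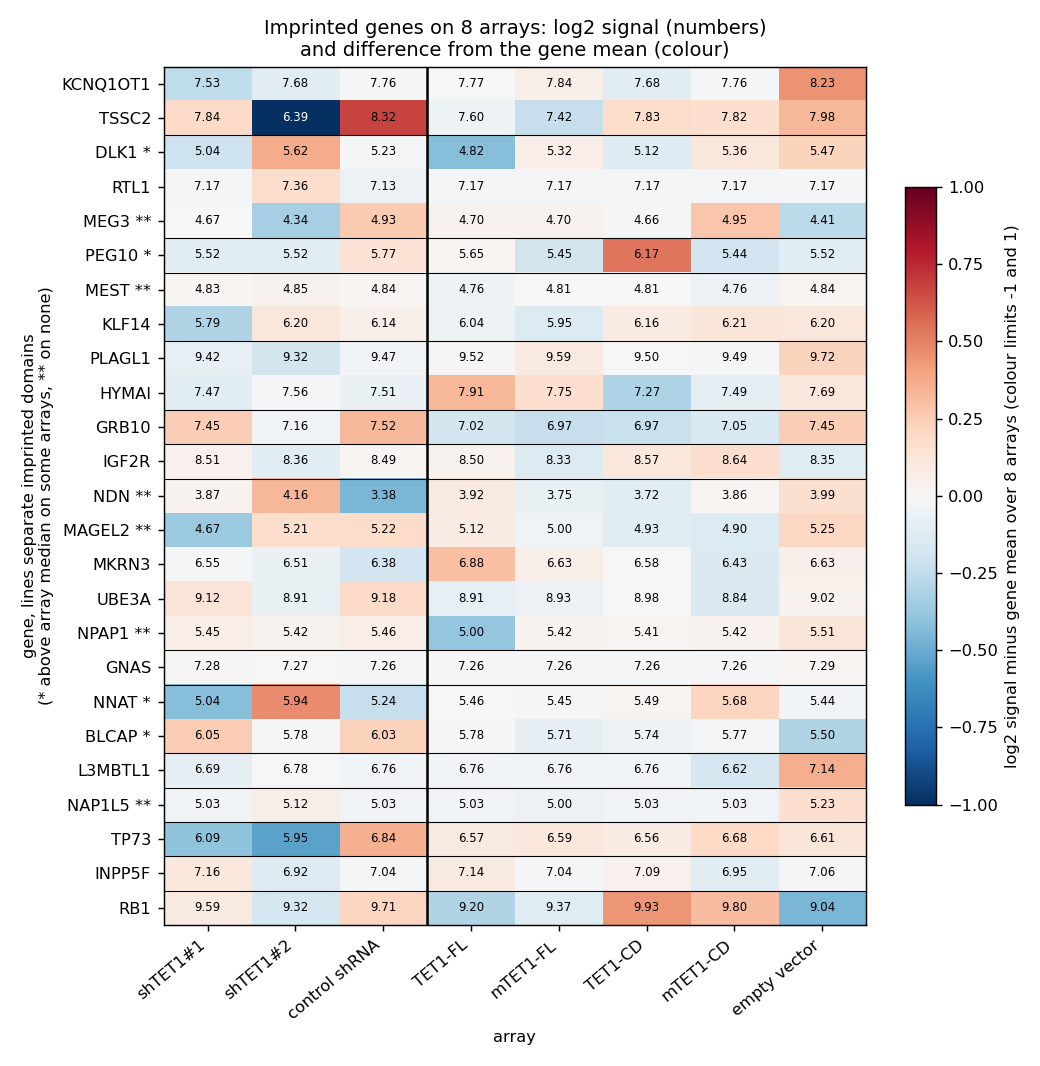
Log2 signal of 25 imprinted genes (rows, lines between imprinted domains) on 8 arrays (columns), with the 3 shRNA arrays left of the heavy line. Numbers are log2 signal and colour is the difference from the gene's mean over the 8 arrays. TSSC2 had the widest range, at 6.39 in the array labelled shTET1#2 and 8.32 in the control clone, and GNAS stood at 7.26 to 7.29.

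In the KCNQ1OT1 domain of chromosome 11, 2 of 6 genes had a cluster and both were above the median on all arrays. KCNQ1OT1, the paternally expressed antisense RNA that silences its neighbours, stood at 7.53 and 7.68 in the TET1 shRNA clones and 7.76 in the control clone. It stood at 7.77 with TET1-FL, 7.84 with mTET1-FL, 7.68 with TET1-CD and 7.76 with mTET1-CD, against 8.23 with the vector. The vector array was thus the highest of all 8. TSSC2, a transcribed pseudogene, stood at 7.84 in clone shTET1#1 and at 6.39 in the array labelled shTET1#2, against 8.32 in the control clone. On the plasmid arrays TSSC2 lay between 7.42 and 7.83, against 7.98 with the vector, so that the low value belonged to 1 clone. TSSC2 was also the 1 imprinted gene at least 2-fold apart between the array labelled shTET1#2 and the vector, against 4.65% of all clusters, and between the 2 TET1 shRNA clones, against 2.36%.

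In the DLK1-MEG3 domain of chromosome 14, only a cluster named RTL1 was above the median on all arrays. RTL1, a paternally expressed gene derived from a retrotransposon, stood at 7.17 and 7.36 in the TET1 shRNA clones, against 7.13 in the control clone. Its value was 7.17 on each of the 4 plasmid arrays and on the vector array. RTL1, GNAS and NAP1L5 had at most 4 distinct values over 8 arrays, so a difference of 0 in them says little. Among the kept clusters, which leave out NAP1L5, 0.677% had so few. The second RTL1 cluster stood at 4.81 to 5.42, below the median on all 8 arrays. RTL1's first cluster number lies between those of the microRNA genes MIR431 and MIR127, which lie antisense to RTL1 in its domain. RefSeq places these 2 on the plus strand and RTL1 on the minus strand. Which strand a cluster reads was not analysed here, so the higher RTL1 values may be those of an antisense transcript. RTL1 stays in the counts of genes above the median and of tested genes. DLK1, a membrane protein of the Notch ligand family, stood at 5.04 and 5.62 in the TET1 shRNA clones and 5.23 in the control clone. It stood at 4.82 to 5.36 on the plasmid arrays, against 5.47 with the vector. MEG3, the maternally expressed RNA of this domain, stood at 4.34 to 4.95, with a second cluster at 2.04 to 2.74.

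On chromosome 7, PEG10 lay near the median on 7 arrays. PEG10, also derived from a retrotransposon and paternally expressed, stood at 5.52 in both TET1 shRNA clones, against 5.77 in the control clone. It stood at 5.65 with TET1-FL and 6.17 with TET1-CD, against 5.45 with mTET1-FL and 5.44 with mTET1-CD, and at 5.52 with the vector. The TET1-CD array was the highest of the 8. MEST, a paternally expressed gene of the hydrolase family, stood at 4.76 to 4.85 on all arrays. KLF14, a maternally expressed transcription factor next to MEST, stood at 5.79 and 6.20 in the TET1 shRNA clones, against 6.14 in the control clone. KLF14 stood at 5.95 to 6.21 on the plasmid arrays, against 6.20 with the vector, so that the lowest value was that of shTET1#1. GRB10, an adaptor protein that restrains insulin and IGF receptor signalling, stood at 7.45 and 7.16 in the TET1 shRNA clones and 7.52 in the control clone. Its 4 plasmid arrays lay between 6.97 and 7.05, against 7.45 with the vector.

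On chromosome 6, PLAGL1 and its non-coding partner HYMAI were above the median on all arrays. PLAGL1 encodes a zinc finger factor that restrains growth, and the pair is read from the paternal copy at the start they share. RefSeq lists other PLAGL1 starts as well, and which start was in use was not analysed here. PLAGL1 stood at 9.42 and 9.32 in the TET1 shRNA clones, against 9.47 in the control clone. It stood at 9.52 with TET1-FL, 9.59 with mTET1-FL, 9.50 with TET1-CD and 9.49 with mTET1-CD, against 9.72 with the vector. All 3 shRNA arrays were therefore below all 5 others, by a small margin. HYMAI stood at 7.47 and 7.56 in the TET1 shRNA clones, against 7.51 in the control clone. It stood at 7.91 with TET1-FL, 7.75 with mTET1-FL, 7.27 with TET1-CD and 7.49 with mTET1-CD, and at 7.69 with the vector. Both FL arrays were thus above both CD arrays. The second HYMAI cluster stood at 3.90 to 4.84. IGF2R, the receptor that takes up IGF2 for breakdown and is imprinted in mice but variably in humans, stood at 8.33 to 8.64 over the 8 arrays.

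In the Prader-Willi and Angelman domain of chromosome 15, 2 of the 5 genes with a cluster were above the median. MKRN3, a ubiquitin ligase known for holding back puberty, stood at 6.55 and 6.51 in the TET1 shRNA clones, against 6.38 in the control clone. MKRN3 stood at 6.88 with TET1-FL and 6.58 with TET1-CD, against 6.63 with mTET1-FL and 6.43 with mTET1-CD, and at 6.63 with the vector. Each wild-type array was above the mutant array of its own construct. UBE3A, a ubiquitin ligase that is imprinted in neurons, stood at 9.12 and 8.91 in the TET1 shRNA clones and 9.18 in the control clone. It stood at 8.84 to 8.98 on the plasmid arrays, against 9.02 with the vector. The 3 other genes lay below the median, where NDN and MAGEL2, both of the MAGE family, stood at 3.38 to 4.16 and 4.67 to 5.25, and NPAP1, a nuclear pore associated protein, at 5.00 to 5.51.

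On chromosome 20, GNAS, the stimulatory G protein subunit, stood at 7.28 and 7.27 in the TET1 shRNA clones, against 7.26 in the control clone. It stood at 7.26 on all 4 plasmid arrays, against 7.29 with the vector. NNAT, a small membrane protein read from an intron of BLCAP, stood at 5.04 in clone shTET1#1 and at 5.94 in the array labelled shTET1#2, against 5.24 in the control clone. These were the lowest and the highest NNAT values of the 8 arrays. BLCAP itself stood at 6.05 and 5.78 in the TET1 shRNA clones, against 6.03 in the control clone. BLCAP stood at 5.71 to 5.78 on the plasmid arrays, against 5.50 with the vector. L3MBTL1, a chromatin-compacting protein, stood at 6.69 and 6.78 in the TET1 shRNA clones, against 6.76 in the control clone. Its 4 plasmid arrays lay between 6.62 and 6.76, against 7.14 with the vector, the highest value.

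Single imprinted genes outside these domains were TP73, RB1, INPP5F and NAP1L5. TP73, of the p53 family, stood at 6.09 and 5.95 in the TET1 shRNA clones, against 6.84 in the control clone. TP73 stood at 6.56 to 6.68 on the plasmid arrays, against 6.61 with the vector, so both TET1 shRNA clones were below the 6 other arrays and the control clone was the highest. RB1, the retinoblastoma protein that restrains entry into S phase, stood at 9.59 and 9.32 in the TET1 shRNA clones and 9.71 in the control clone. RB1 stood at 9.20 with TET1-FL, 9.37 with mTET1-FL, 9.93 with TET1-CD and 9.80 with mTET1-CD, against 9.04 with the vector. The CD arrays were the highest of the 8 and the vector array the lowest. INPP5F, an inositol phosphatase, stood at 6.92 to 7.16, and NAP1L5, a nucleosome assembly protein relative, at 5.00 to 5.23, below the median.

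**Figure D2:**
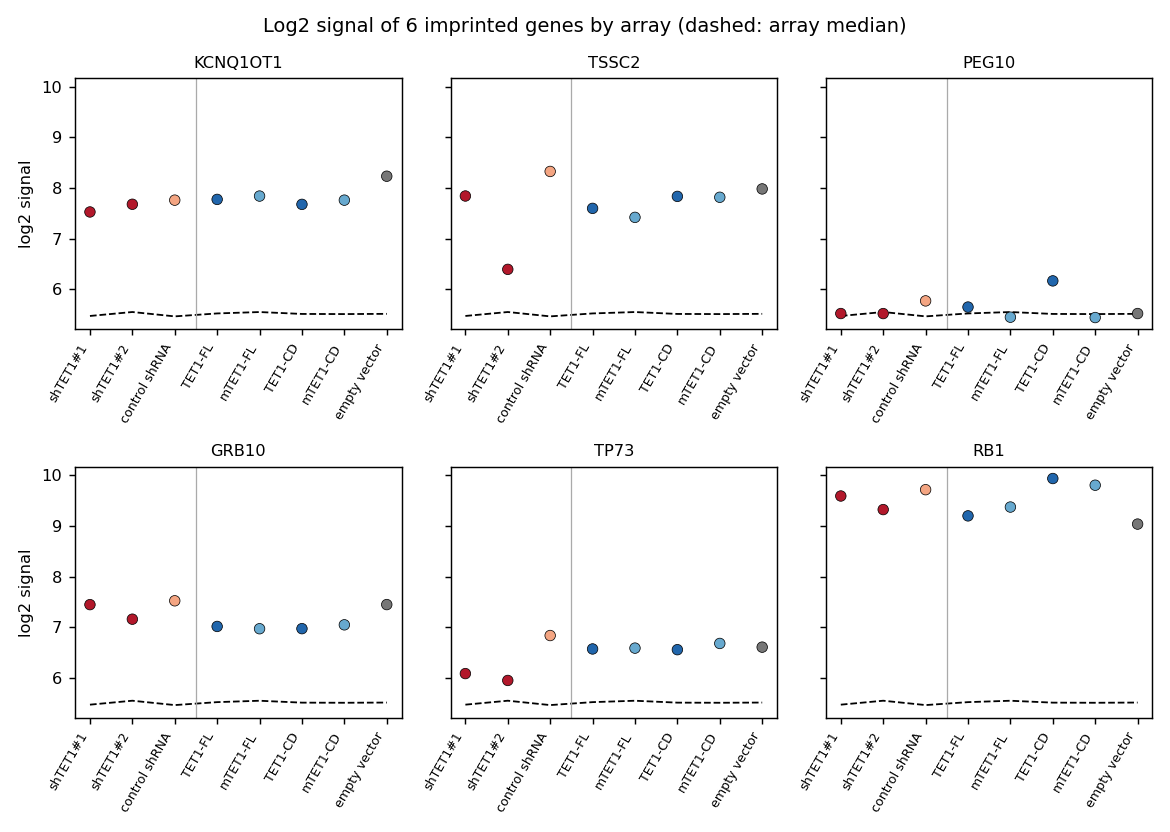
Log2 signal (vertical axis) of 6 imprinted genes on each of 8 arrays (horizontal axis), with the 3 shRNA arrays left of the grey line and the array median dashed. TP73 was at 6.09 and 5.95 in the TET1 shRNA clones, against 6.84 in the control clone, and GRB10 was at 6.97 to 7.05 on the 4 plasmid arrays, against 7.45 with the vector.

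The 2 clones with shRNA against TET1 were set against the control clone, although TET1 itself was not clearly lower in the array labelled shTET1#2, so values of the single clones are given beside the estimates that differ between them. All 8 arrays entered 1 fit in limma, with p-values adjusted by Benjamini-Hochberg over the 28946 clusters. None of the 18 imprinted genes passed an adjusted p of 0.05, and the share of all clusters that passed was 0%. At an unadjusted p under 0.05 there was 1 imprinted gene, against 7.93% of all clusters. This gene, TP73, had a log2 difference of -0.82 ± 0.16 (SE, 2 clones against 1), with an adjusted p of 0.487 by limma and differences of -0.75 and -0.89 in the single clones. With the vector as the control, the TP73 difference was -0.59, and 3 of 18 genes (TP73, KCNQ1OT1 at -0.63 and L3MBTL1 at -0.41) had an unadjusted p under 0.05, against 15.2% of all clusters. TSSC2 had the lowest estimate, -1.21 ± 0.59 (SE), but its clones gave -0.48 and -1.93, and it was over 2-fold lower than the control clone in the array labelled shTET1#2, as the 1 imprinted gene among 3.28% of all clusters. In shTET1#1 0 of the 18 genes were 2-fold from the control clone, against 1.99% of all clusters. NNAT had the highest estimate, 0.25 ± 0.39 (SE), with opposite signs in the clones (-0.20 and 0.70) and values below the median in shTET1#1 and the control clone. RB1 was at -0.26 ± 0.20 and PEG10 at -0.25 ± 0.20 (SE), and RB1 turned to 0.42 and MKRN3 (0.15) to -0.093 with the vector as the control. The remaining members had differences between -0.22 for GRB10 and 0.13 for RTL1.

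Over the 18 genes, 6 were higher and 12 lower in the TET1 shRNA clones, with a median of -0.11, against a median of -0.010 and 47.7% higher among all kept clusters. Both clones lay above the control clone for RTL1, MKRN3 and GNAS, 3 of 18, against 29.4% of all clusters. Both lay below it for 8 of 18, against 33.1% of all clusters, and these were KCNQ1OT1, TSSC2, PEG10, PLAGL1, GRB10, UBE3A, TP73 and RB1. The clones differed from each other with an SD of 0.394 over all kept clusters.

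Wild-type and catalytically mutant TET1 plasmids were compared to ask what depended on the enzyme activity. None of the 18 genes passed (adjusted p of 1 for each in limma), and 0% of all clusters did. PEG10 was the 1 gene with an unadjusted p under 0.05, against 1.96% of all clusters, with a log2 difference of 0.46 ± 0.17 (SE, 2 arrays each). The PEG10 difference was 0.20 between TET1-FL and mTET1-FL and 0.72 between TET1-CD and mTET1-CD, so the value rested mostly on the CD pair, and both mutant arrays lay below the array median. MKRN3 was at 0.20 ± 0.12 (SE), from 0.24 with FL and 0.15 with CD. INPP5F was at 0.12. Over the 18 genes 9 were higher, 7 lower and 2 had no difference with wild-type plasmids, with a median of 0.0098, against 0.0027 over all kept clusters. Both wild-type arrays lay above both mutant arrays for PEG10 and INPP5F, against 9.88% of all clusters, and below them for TP73, against 11.1%. None of the 18 genes was 2-fold apart in either pair, against 0.736% of all clusters for FL and 0.563% for CD.

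The 4 TET1 plasmids were then set together against the vector, a comparison that rests on 1 vector array. None of the 18 genes passed an adjusted p of 0.05, and 0% of all clusters did. At an unadjusted p under 0.05 there were 4 imprinted genes, against 15% of all clusters. KCNQ1OT1 had a log2 difference of -0.47 ± 0.14 (SE, 4 arrays against 1), with an adjusted p of 0.263 by limma. GRB10 was at -0.45 ± 0.17 (SE) and L3MBTL1 at -0.42 ± 0.14 (SE). For all 3 genes, wild-type and mutant alike lay below the vector on each plasmid array. L3MBTL1, however, had exactly the same value (6.76) with TET1-FL, mTET1-FL and TET1-CD and in the control clone. RB1 was at 0.54 ± 0.18 (SE), with 0.16 for TET1-FL, 0.34 for mTET1-FL, 0.90 for TET1-CD and 0.77 for mTET1-CD. Of the 18 genes, 6 were higher and 12 lower with the plasmids, with a median of -0.019, against 0.0014 over all kept clusters. On single arrays 0 of the 18 genes were 2-fold from the vector, against 3.6% of all clusters with TET1-FL, 3.03% with mTET1-FL, 3.68% with TET1-CD and 3.14% with mTET1-CD. All 4 plasmids lay above the vector for NNAT, BLCAP and RB1, 3 of 18, against 27.2% of all clusters. All 4 lay below it for 7 of 18, against 27.2% as well, and these were KCNQ1OT1, TSSC2, PLAGL1, GRB10, UBE3A, GNAS and L3MBTL1.

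Between the constructs, FL minus CD, none of the 18 genes passed an adjusted p of 0.05, as 0% of all clusters did. RB1 and HYMAI had an unadjusted p under 0.05, 2 of 18, against 13.7% of all clusters. RB1 had a log2 difference of -0.58 ± 0.16 (SE, 2 arrays each) with an adjusted p of 0.241 by limma. HYMAI was at 0.45 ± 0.15 (SE) with an adjusted p of 0.299 by limma. PLAGL1, which shares a start with HYMAI but has others, was at 0.060 ± 0.12 (SE). Both FL arrays lay above both CD arrays for KCNQ1OT1, PLAGL1, HYMAI and MKRN3, against 27.6% of all clusters. They lay below both for TSSC2, KLF14, IGF2R, NNAT and RB1, against 25.7% of all clusters. The median over the 18 genes was -0.0072, against 0.0031 over all kept clusters, with 7 higher and 11 lower.

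The 3 shRNA arrays stood apart from the 5 plasmid and vector arrays over the whole table. In this comparison, how the cells were made, cloning, sorting and what they carried cannot be told apart. The limma SE and p-values rest on the spread left after the fit. They leave out how far the groups within a side lay apart, such as the control and TET1 shRNA clones or the vector and the plasmids. Calls in this comparison may therefore look firmer than the arrays allow. None of the 18 imprinted genes passed an adjusted p of 0.05 by limma, against 5.41% of all clusters, and 1 gene had an unadjusted p under 0.05, against 26.6%. That gene, TP73, averaged 6.29 ± 0.48 on the shRNA arrays (SD, n = 3) and 6.60 ± 0.048 on the others (SD, n = 5), a log2 difference of -0.31 with an exact two-sided permutation p of 0.214. Its shRNA arrays lay on both sides of the others. PLAGL1 was the 1 gene with no overlap, being lower on all shRNA arrays, against 8.18% of all clusters, and 0 genes were higher without overlap, against 7.67%. PLAGL1 averaged 9.40 ± 0.078 (SD, n = 3) on the shRNA arrays and 9.57 ± 0.098 (SD, n = 5) on the others, with an adjusted p of 0.332 by limma. Its exact two-sided permutation p was 0.0357, the smallest that 3 against 5 arrays allow. Any gene without overlap gets this value, so it restates the lack of overlap and adds no support. Of the 18 genes, 0 were 2-fold apart between shTET1#1 and the vector, against 3.81% of all clusters, or between the control clone and the vector, against 4.54%. GRB10 was at 0.28 ± 0.11 and BLCAP at 0.25 ± 0.11 (SE). The 18 genes had 6 higher and 12 lower on the shRNA arrays, with a median of -0.053, against -0.014 over all kept clusters.

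**Figure D3:**
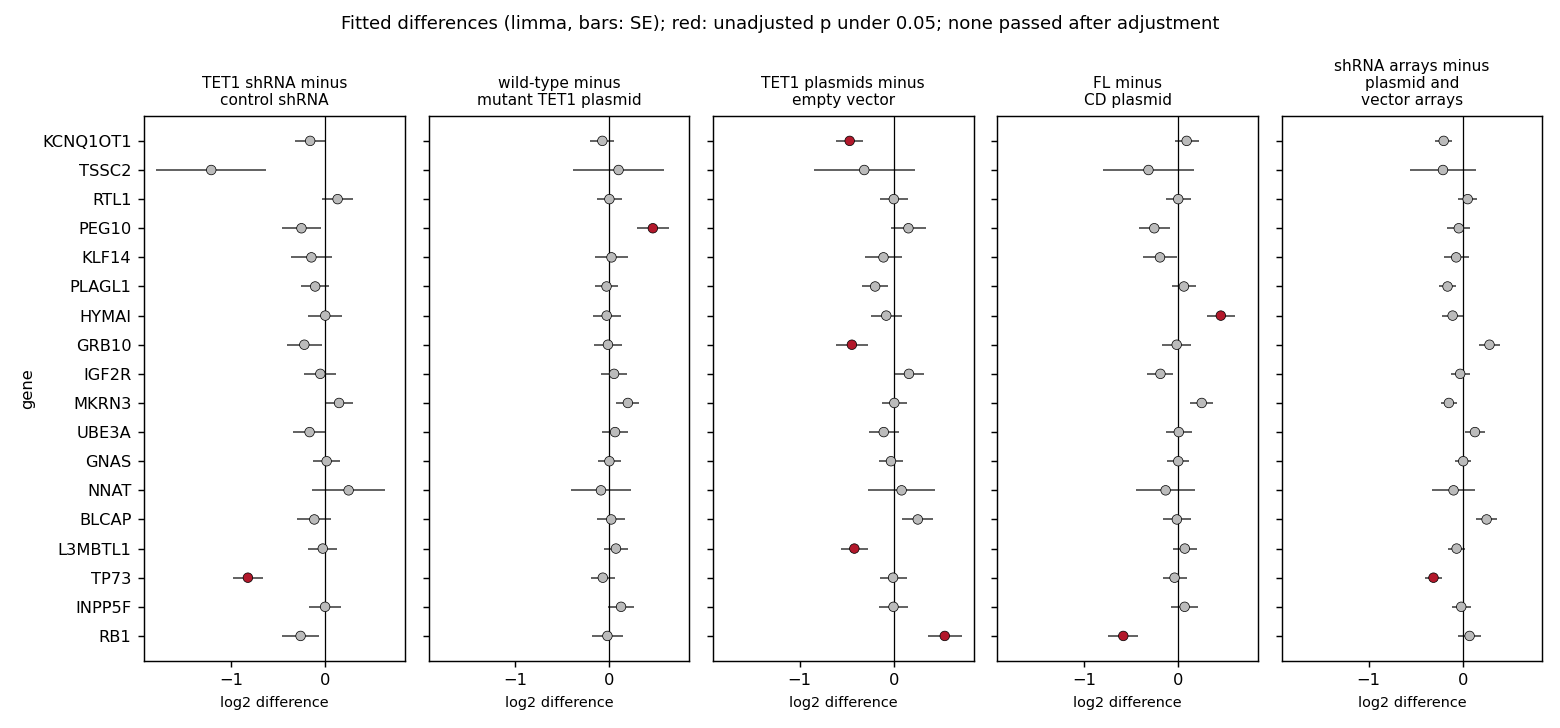
Fitted log2 differences of 18 imprinted genes (rows) in 5 comparisons (panels), with SE bars from limma. Red points had an unadjusted p under 0.05 and none passed after adjustment. TSSC2 had the widest bar, 0.59 in the TET1 shRNA panel.

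The GNAS domain held 1 gene of the imprinted list, and 3 more of its transcripts were in the lists of other imprinted genes and domain microRNAs. GNAS-AS1, the paternally expressed antisense RNA of this domain, stood at 4.66 and 4.84 in the TET1 shRNA clones and 4.66 in the control clone. It stood at 7.70 with TET1-FL, 7.67 with mTET1-FL, 7.43 with TET1-CD and 7.40 with mTET1-CD, and at 8.07 with the vector. All 3 shRNA arrays were below the median and all 5 others above it. GNAS-AS1 averaged 4.72 ± 0.11 (SD, n = 3) on the shRNA arrays and 7.65 ± 0.27 (SD, n = 5) on the others. With the shRNA arrays set to their own medians, since a value below them may be background, it was at least 4.46-fold lower. GNAS-AS1 passed the signal filter only through the arrays where it was high, so its test of the shRNA arrays against the others after that filter is not used. With no filter, over all 53617 clusters, its log2 difference of -2.93 between measured means had an adjusted p of 0.0356 by limma. In that setting 135 of the 53617 clusters passed. In the fit after the filter, the TET1 shRNA minus control difference of GNAS-AS1, between values below the median, was 0.093 ± 0.16 (SE). That between wild-type and mutant plasmids was 0.030 ± 0.13 (SE). Neither of these 2 differences passed the threshold.

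MIR298, a microRNA gene of the same domain and above the median on all 8 arrays, stood at 5.76 and 5.64 in the TET1 shRNA clones and 6.15 in the control clone. It stood at 6.68 with TET1-FL, 6.74 with mTET1-FL, 6.82 with TET1-CD and 6.69 with mTET1-CD, and at 7.45 with the vector. MIR298 was lower on all shRNA arrays than on the others, as were 8.18% of all clusters. It averaged 5.85 ± 0.26 (SD, n = 3) on the shRNA arrays and 6.88 ± 0.33 (SD, n = 5) on the others. The log2 difference was -1.03 ± 0.096 (SE) with an adjusted p of 0.0234 by limma, a threshold that 5.41% of all clusters passed. With no filter the adjusted p of MIR298 was 0.0539 by limma. MIR296, its neighbour, lay below the median on all 8 arrays, at 2.43 to 3.14. RefSeq gives the order MIR296, MIR298, GNAS-AS1 and GNAS, and the first 3 have neighbouring cluster numbers. GNAS itself differed by 0.0059 between the shRNA arrays and the others, but it had the same value on 5 of the 8 arrays, so this says little.

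**Figure D4:**
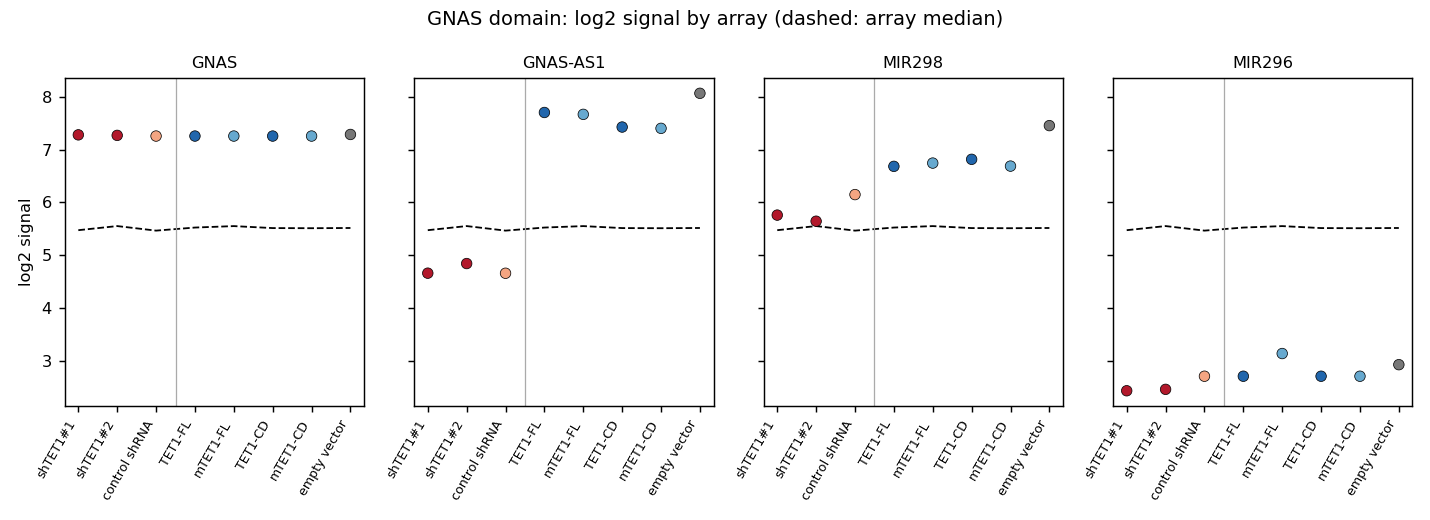
Log2 signal (vertical axis) of 4 transcripts of the GNAS domain on each of 8 arrays (horizontal axis), with the 3 shRNA arrays left of the grey line and the array median dashed. GNAS-AS1 was at 4.66 to 4.84 on the shRNA arrays and 7.40 to 8.07 on the others. GNAS was at 7.26 to 7.29 with only 4 distinct values, so its lack of difference says little.

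Of the 10 kept genes of 14 named on the list of other imprinted genes, ZNF597 passed after the filter, with GNAS-AS1 left aside. Of 35 kept neighbours of imprinted domains 2 did, against 5.41% of all clusters, so the neighbours' share was near that of the table. ZNF597, a zinc finger gene of chromosome 16, was at -0.73 with an adjusted p of 0.0306 by limma and an exact two-sided permutation p of 0.107, since the vector array overlapped the shRNA arrays. ZNF597 was at 1.05 ± 0.14 (SE) between the 4 plasmids and the vector, with an adjusted p of 0.163 by limma. The neighbours were PON2, a lactonase gene beside PEG10's domain (0.80, adjusted p 0.0317 by limma), and OCA2, a pigment gene beside UBE3A's domain (0.58, adjusted p 0.0403 by limma). Both were higher on all shRNA arrays than on the others, as were 7.67% of all clusters. HERC2, next to OCA2, was at 0.64 and did not pass. With no filter ZNF597 (adjusted p 0.0682), PON2 (0.0695) and OCA2 (0.0849) missed the threshold by limma. In the 4 other comparisons 0 genes of either list passed by limma. At an unadjusted p under 0.05 there were 0, 0, 2 and 1 of the 10 other imprinted genes and 2, 1, 3 and 3 of the 35 neighbours, against 7.93%, 1.96%, 15% and 13.7% of all clusters in the order given above. The 2 other imprinted genes were ZNF597 and GNAS-AS1, of which GNAS-AS1 passed the filter only through the arrays where it was high.

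Of 15 listed genes that set, read or maintain imprints or DNA methylation, 13 were kept, and 0 of 13 passed in any comparison by limma. At an unadjusted p under 0.05 there were 1, 0, 1, 4 and 3 in the order of the comparisons above. The shares of all clusters at that p were 7.93%, 1.96%, 15%, 13.7% and 26.6%. Against the control clone, UHRF1, which brings DNA methyltransferase to replicated DNA, was at -0.42 and ZNF445, a zinc finger protein that binds imprinted control regions, at 0.53. Of the 8 arrays, the control clone was the highest for UHRF1 (9.56) and the lowest for ZNF445 (7.62). Against the vector, the clones were at 0.49 and 0.47 for UHRF1 and at -0.23 in both for ZNF445. A second kept ZNF445 cluster was at -0.21 and -0.097 against the control clone. Between constructs 10 of the 13 were lower and 3 higher with FL than with CD, with a median of -0.20, against 0.0031 over all kept clusters. The lowest were ARID4B, a chromatin factor of the Prader-Willi imprint in mice, at -0.54, UHRF1 at -0.49 and SMCHD1, a chromatin protein that silences imprinted and X-linked genes, at -0.47. Wild-type minus mutant gave 0.28 for DNMT3B, a de novo DNA methyltransferase. On the shRNA arrays CTCF, the insulator protein, was at 0.39 and UHRF1 at 0.42 relative to the others.

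Imprinted domains also hold microRNA genes, of which 57 had a named cluster. The cDNA came from total RNA and a gene-level array reads the precursor's region, so its values are not those of the mature microRNA. Of the 57, 46 lay below the median on all 8 arrays, 10 were kept and 7 lay above the median on all 8. MIR591 passed the threshold only after the signal filter. The mature sequences of those with the highest means and an entry, and of MIR591, are given below from RefSeq (GRCh38.p14), 5′ to 3′, with the seed (bases 2 to 8) in capitals.
hsa-miR-127-5p: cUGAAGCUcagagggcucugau
hsa-miR-127-3p: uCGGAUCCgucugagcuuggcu
hsa-miR-412-5p: uGGUCGACcaguuggaaaguaau
hsa-miR-412-3p: aCUUCACCugguccacuagccgu
hsa-miR-134-5p: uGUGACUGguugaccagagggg
hsa-miR-134-3p: cCUGUGGGccaccuagucaccaa
hsa-miR-541-5p: aAAGGAUUcugcugucggucccacu
hsa-miR-541-3p: uGGUGGGCacagaaucuggacu
hsa-miR-431-5p: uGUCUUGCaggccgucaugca
hsa-miR-431-3p: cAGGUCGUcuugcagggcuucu
hsa-miR-298: aGCAGAAGcagggagguucuccca
hsa-miR-591: aGACCAUGgguucucauugu
None of these shares its seed with another mature microRNA of the 57 genes, while 9 seeds were shared by 19 of the 96 mature names. MIR127, antisense to RTL1 in its domain, stood at 7.28 and 8.33 in the TET1 shRNA clones and 7.48 in the control clone. It stood at 7.23 with TET1-FL and 7.40 with TET1-CD, against 7.83 with mTET1-FL and 7.87 with mTET1-CD, and at 7.60 with the vector. Both wild-type arrays were below both mutant arrays, as for 11.1% of all clusters, and the log2 difference of -0.53 ± 0.36 (SE) did not pass (adjusted p of 1 by limma). Over the 10 kept microRNA genes 8 were lower and 2 higher with wild-type plasmids, with a median of -0.11, against 0.0027 over all kept clusters. MIR591, whose hairpin lies inside SLC25A13, stood at 5.93 and 5.99 in the TET1 shRNA clones and 6.60 in the control clone, and at 5.25 to 5.42 on the plasmid arrays, against 5.91 with the vector. The plasmid arrays lay below the median and the 4 others above it. Between the shRNA arrays and the others MIR298 and MIR591 passed after the signal filter, 2 of 10, against 5.41% of all clusters. MIR591, at 0.70 with an adjusted p of 0.0313 by limma, passed the filter only through the shRNA and vector arrays, where it was high. Its test after that filter, and the count of 2, are therefore not used. With no filter neither MIR298 (adjusted p 0.0539) nor MIR591 (0.0703) passed by limma.

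Promoter sequences were read for 20 of the 25 genes, in windows of 300 bases around each RefSeq start. The window of HYMAI, chr6:144008210-144008509 on the minus strand (GRCh38.p14), is shown because PLAGL1 and HYMAI were kept and share it. The MEST window, chr7:130491835-130492134 on the plus strand, is set beside it as a promoter of a gene below the median on all arrays. Each is 1 of 5 windows listed for PLAGL1 and for MEST, the one with the most CG pairs, and both were chosen after the values were seen. The RB1 window, chr13:48476200-48476499 on the plus strand, is shown since RB1 had the third widest range among the kept genes and the first and second, TSSC2 and NNAT, are named only. It is the table's 1 entry for RB1 and lies inside the gene, which RefSeq places at chr13:48303751-48481890, so it is a start far downstream of the gene's first base. Each is printed 5′ to 3′ with CG pairs in capitals.
HYMAI: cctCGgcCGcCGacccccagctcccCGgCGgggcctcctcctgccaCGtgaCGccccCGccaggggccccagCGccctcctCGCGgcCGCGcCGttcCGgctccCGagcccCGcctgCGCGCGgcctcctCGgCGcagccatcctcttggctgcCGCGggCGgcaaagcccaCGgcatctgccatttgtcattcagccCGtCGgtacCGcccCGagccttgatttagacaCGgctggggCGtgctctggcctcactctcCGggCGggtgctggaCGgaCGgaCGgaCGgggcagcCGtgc
MEST: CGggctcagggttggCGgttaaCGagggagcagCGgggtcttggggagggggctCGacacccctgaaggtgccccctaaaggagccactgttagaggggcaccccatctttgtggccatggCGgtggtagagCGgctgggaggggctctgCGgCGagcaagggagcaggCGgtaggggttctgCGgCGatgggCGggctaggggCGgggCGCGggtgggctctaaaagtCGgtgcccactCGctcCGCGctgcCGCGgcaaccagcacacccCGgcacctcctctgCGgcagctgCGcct
RB1: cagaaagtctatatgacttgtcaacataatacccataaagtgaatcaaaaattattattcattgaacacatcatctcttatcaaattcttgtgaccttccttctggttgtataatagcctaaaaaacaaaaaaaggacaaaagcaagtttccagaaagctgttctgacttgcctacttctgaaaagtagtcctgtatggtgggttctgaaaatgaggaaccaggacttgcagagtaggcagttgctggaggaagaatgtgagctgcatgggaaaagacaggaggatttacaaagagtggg
The HYMAI window held 39 CG pairs at 75.7% G and C, the MEST window 25 at 70.3% and the RB1 window 0 at 38.3%. The motif TGCCGC, the hexamer bound when methylated by ZFP57, a zinc finger protein that guards imprints, was searched on both strands. It was present in the HYMAI window 2 times, in the MEST window 3 times and in the RB1 window 0 times. Of the 47 windows of imprinted genes, 19 (40.4%) held it, against 16.7% of all 35116 windows, and the median count of CG pairs was 21, against 14. The motif itself contains a CG pair. Several windows belong to 1 gene and some overlap, so that the same motif can be counted repeatedly. The window shared by PLAGL1 and HYMAI counts under both genes. A match is a description of the letters.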

How the data were processed

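Total RNA from 8 HEK293T cultures or clones was measured on 8 Affymetrix arrays after amplification of 100 ng, per the labels' protocols. The deposited values are log2 signal, made with RMA and Affymetrix Expression Console 1.3.1 per the submitters' processing notes. The genome build used is not given in the sources used here. Of 53981 rows, 364 held no value. The platform annotation named 16098 clusters, all matched by gene number in RefSeq (GRCh38.p14), and 37519 carry no name here.

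All 8 arrays entered 1 limma 3.58.1 fit (R 4.3.3) with terms for control shRNA, TET1 shRNA, vector, wild-type, mutant and construct. It left 2 residual degrees of freedom, which hold how far the 2 TET1 shRNA clones, and the wild-type minus mutant values of FL and CD, lay apart, with a prior of 2.89 degrees of freedom and an SD of 0.154. P-values were adjusted by Benjamini-Hochberg over 28946 clusters. Exact permutation tests used SciPy 1.17.1. Alternatives changed the normalization, signal filter, clusters tested, prior, arrays and control. The number of arrays limits the precision.

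The members and lists were chosen with earlier results of these data known. All members are named. From the other lists, at most the 3 highest and 3 lowest genes per comparison are named, with those past the threshold. MicroRNA sequences are those of the 6 highest means with an entry and of MIR591. Of the promoters, that of RB1 follows from the rule of the 3 widest ranges, and those of HYMAI and MEST were added after the values were seen.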

Additional observations from a re-analysis of the deposited data

Results flagged for a closer look

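HYMAI, the non-coding partner of PLAGL1, moved in opposite directions with wild-type and mutant plasmid in the 2 constructs. TET1-FL minus mTET1-FL was 0.16 and TET1-CD minus mTET1-CD was -0.22 on the log2 scale. RB1 did so the other way round, at -0.17 with FL and 0.13 with CD. Each construct had 1 array per plasmid, a gene was listed where both differences were at least 0.1 in size, and the difference between constructs was not tested. The SD of these differences over all kept clusters was 0.269 for FL and 0.241 for CD, so all 4 values lay within it.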

How the results depend on the processing

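The 18 imprinted genes gave 813 differences under the alternatives, 0 of them past the adjusted threshold. The sign changed in 55. In 2 of these the main difference was at least its SE, MKRN3 and RB1 with the vector as control of the TET1 shRNA clones. BLCAP, whose main difference of -0.11 was smaller than its SE, also changed sign there. Its clones lay 0.56 and 0.28 above the vector. The median difference of the 18 genes stayed within the spread of its main value in each comparison under the alternatives run, and 15 genes lay above the median on all arrays when any cluster of a gene counted and when its clusters were averaged. For TET1 shRNA against control shRNA 5 clusters passed with 1 cluster per symbol, against 0, and the imprinted genes at an unadjusted p under 0.05 numbered 2 to 3 without 1 clone and 3 with the vector as control, against 1. Between wild-type and mutant plasmids that count was 0 with a trended prior, with the 5 plasmid and vector arrays alone and without either clone (0 to 0), against 1, PEG10. It was also 0 with only clusters above the median on all arrays, but that filter removes PEG10 before the test. Plasmids minus vector gave 1 cluster past the adjusted threshold with median centring, against 0. Between the shRNA arrays and the others 135 clusters passed with no filter, 2550 with a trended prior and 2751 to 2858 without 1 clone, against 1566. Imprinted genes at an unadjusted p under 0.05 there numbered 2 with cyclic loess, 2 with the filter on all arrays, 3 with 1 cluster per symbol, 2 with a trended prior and 2 to 4 without 1 clone, against 1. With no filter GNAS-AS1 kept its call (adjusted p 0.0356 by limma), while MIR298 (0.0539), ZNF597 (0.0682), PON2 (0.0695), MIR591 (0.0703) and OCA2 (0.0849) missed the threshold, where more clusters were tested. GNAS-AS1 and MIR591 could not be tested with the filter on all arrays. The cause of the other changes was not tested. Leaving TSSC2 out of the medians, or keeping only genes above the median on all arrays, was chosen after seeing the data and moved no median beyond its spread. No paired analysis was possible because only the TET1 shRNA clones carry numbers, so that no groups share replicate numbers.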

Other observations

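Neighbours of imprinted domains with an unadjusted p under 0.05 for TET1 shRNA against control shRNA numbered 2 of 35, against 7.93% of all clusters, so that this is no more than the share of the table. TFPI2, a protease inhibitor gene beside PEG10's domain, was at -0.94 ± 0.19 (SE) with an adjusted p of 0.492 by limma. It stood at 5.94 and 5.89 in the TET1 shRNA clones and 5.94 with the vector, and the control clone (6.86) was the highest of the 8 arrays. CTSZ, a lysosomal protease gene beside GNAS, was at 0.59 ± 0.15 (SE) with an adjusted p of 0.545 by limma. It stood at 6.49 and 6.62 in the clones and 6.42 with the vector, and the control clone (5.97) was the lowest of the 8 arrays. Both differences thus rest on the control clone. Of the 35 kept neighbours, 16 were higher and 19 lower in the TET1 shRNA clones, with a median of -0.016, against -0.010 over all kept clusters.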
